A study of Mus musculus with 13 samples.

Results

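The late response to Smarcc1 knockdown was described in differentiating female mouse embryonic stem cells (mESCs) on days 6 and 7 of differentiation, from 6 of the 13 RNA-seq libraries of the series. The 4 knockdown libraries carried the short hairpin RNA Smarcc1.6 or Smarcc1.7, with 1 library per hairpin and day, and the 2 control libraries carried a nonsilencing hairpin (Nons), with 1 library per day. All 6 came from female FVB/CAST F1 mESC lines, bred from FVB/NJ mothers and CAST/EiJ fathers, which were grown in 2i, weaned into serum medium (DME HiHi) to differentiate without a directing signal, transduced with a retrovirus on day 2 and selected with puromycin from day 3. The sources do not tie libraries to separate lines, and they describe no separate cultures for libraries of a group. P-values therefore measured the spread between these libraries, which may be technical. Of 25965 genes in the table, 13481 had a mean log2 CPM (CPM being the read count scaled to the number of mapped reads in the library) of at least 0 over the 6 libraries and were tested. The mean took in 4 knockdown and 2 Nons libraries, so a gene low in Nons could be tested because it was high in knockdown. A change below is the log2 CPM of a knockdown library minus that of the Nons library of the same day, taken over the 4 knockdown libraries by a limma model with day as a factor, with p-values adjusted by the Benjamini-Hochberg method over all 13481 genes and a threshold of 0.05.

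Smarcc1 (Baf155) is a scaffold protein of BAF, an ATP-dependent chromatin remodeller that slides and evicts nucleosomes and thereby opens promoters and enhancers. Cells leaving naive pluripotency pass through a formative state and then take up germ layer programmes. The primitive streak is the site where mesoderm and endoderm arise, under Nodal, Wnt and FGF signals, and the T-box factors T (Brachyury) and Eomes mark it. Female mESCs also silence 1 X chromosome as they differentiate, under the long non-coding RNA Xist. Many germline genes are kept silent in somatic cells by DNA methylation of promoters rich in CpG.

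The antisense strands of both hairpins are shown because all 4 knockdown libraries rest on them, with bases 2 to 8 (the seed) in capitals.
Smarcc1.6: tGTAACTGcttcttcatcctgc
Smarcc1.7: tTGCTCATcttcttccttctga
Each is 22 bases long and matches the coding sequence of Smarcc1 on its complementary strand (genome build mm10, GENCODE M21). The site of Smarcc1.6, gcaggatgaagaagcagttaca, lies in exon 13 of 29 at chr9:110177472-110177493, and the site of Smarcc1.7, tcagaaggaagaagatgagcaa, in exon 11 of 29 at chr9:110173911-110173932, both on the + strand. Both sites are present in 5 of the 9 annotated Smarcc1 transcripts. The hairpins had different seeds, and 13 of the 22 positions held the same base.

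The 6 libraries held between 29667077 and 58665015 mapped reads, so a gene with 3 reads sat between -4.29 and -3.31 log2 CPM, a floor that covers counting error only. The 3 libraries of day 6 differed from those of day 7 in how reads were assigned. On day 6 between 85.3% and 86.5% of mapped reads fell in genes, against 92.5% to 92.6% on day 7, and ribosomal protein genes took 2.14% to 2.46% of mapped reads against 6.97% to 7.81%. Processed pseudogenes took 1.52% to 1.73% against 0.447% to 0.484%. Nons and knockdown libraries were alike in these shares, and all differences between knockdown and Nons were taken within a day. Where levels of day 6 and day 7 are compared below, time and read assignment cannot be told apart. Whether single genes were touched by the read assignment was not tested. Cells were also checked against marker genes. The 6 markers of undifferentiated mESCs, led by Pou5f1, summed to 1083 to 1730 CPM in Nons and 1084 to 1839 CPM in knockdown libraries, and all 6 had reads in each library. The 4 markers of primitive streak and mesoderm summed to 112 and 333 CPM in Nons and 22.4 to 68.1 CPM in knockdown libraries. Endoderm markers summed to 8.78 and 23.9 CPM in Nons and 5.31 to 11.0 CPM in knockdown libraries, neuroectoderm markers to 166 and 259 CPM against 179 to 261 CPM, and trophoblast markers to 38.9 and 41.1 CPM against 41.7 to 54.9 CPM. Markers of fibroblast feeders summed to 9.69 and 26.2 CPM in Nons and 10.1 to 16.9 CPM in knockdown libraries, and those of macrophages and blood to 14.7 and 20.1 CPM against 11.8 to 32.5 CPM, with the blood marker Tyrobp at 0 reads in all 6.

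Smarcc1 itself was lower in all 4 knockdown libraries. On day 6 Nons had 8.28 log2 CPM, Smarcc1.6 7.28 and Smarcc1.7 7.17, and on day 7 the values were 7.89, 7.28 and 7.51. The knockdown libraries lay below both Nons libraries, without overlap. The mean difference was -0.77 ± 0.34 (SD, n = 4), a level of 58.5% of Nons (57.3% with Smarcc1.6 and 59.6% with Smarcc1.7). By limma the adjusted p was 0.011, and the exact permutation test over libraries, two-sided, gave p = 0.111, the smallest that its 9 arrangements allow, so no single value could pass 0.05 by that test (0.444 adjusted over 4 values). The limma call rested on 2 libraries, with adjusted p of 0.12 without Nons of day 6 and 0.055 without Smarcc1.7 of day 6. Smarcc1 was the only one of 27 tested BAF subunits past the threshold. Its paralogue Smarcc2 changed by 0.14, and the ATPases Smarca4 and Smarca2 by 0.05 and 0.08, none past the threshold (adjusted p from 0.59 to 0.87).

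Xist, which coats the X chromosome to be silenced, had 10.09 log2 CPM on day 6 in Nons against 9.11 (Smarcc1.6) and 9.76 (Smarcc1.7), and 10.03 on day 7 against 9.51 and 10.23. It was lower than Nons in 3 of 4 knockdown libraries, by -0.41 ± 0.49 on average (SD, n = 4; exact permutation p = 0.333, 0.444 adjusted), and the groups overlapped. The fit of the hairpins apart gave -0.75 for Smarcc1.6 (adjusted p = 0.019) and -0.06 for Smarcc1.7 (adjusted p = 0.85), and the difference between hairpins was -0.69 (adjusted p = 0.95). On days 4 and 5 Xist was below Nons in 4 of 4 differences, with a change of -1.10 (limma, adjusted p = 0.028). The late minus early difference of 0.69 did not pass (limma, adjusted p = 0.36). Its antisense partner Tsix, whose gene overlaps Xist so that without strand their reads cannot be told apart, changed by -0.34 ± 0.57 (SD, n = 4; exact permutation p = 0.556), with values of 6.65, 5.78 and 6.29 on day 6 and 6.26, 5.68 and 6.71 on day 7 in the same order. With Smarcc1.7 and Nons alone Tsix was 0.05 above Nons. None of the 26 tested regulators of X inactivation passed the threshold, with a median change of -0.09. The gap between the X-linked and the autosomal median level was above that of Nons in 4 of 4 knockdown libraries, by 0.052 ± 0.044 (SD, n = 4; exact permutation p = 0.222, 0.444 adjusted), a difference close to its spread. These values count both alleles together, and allele-specific values were not analysed here.

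**Figure D1:**
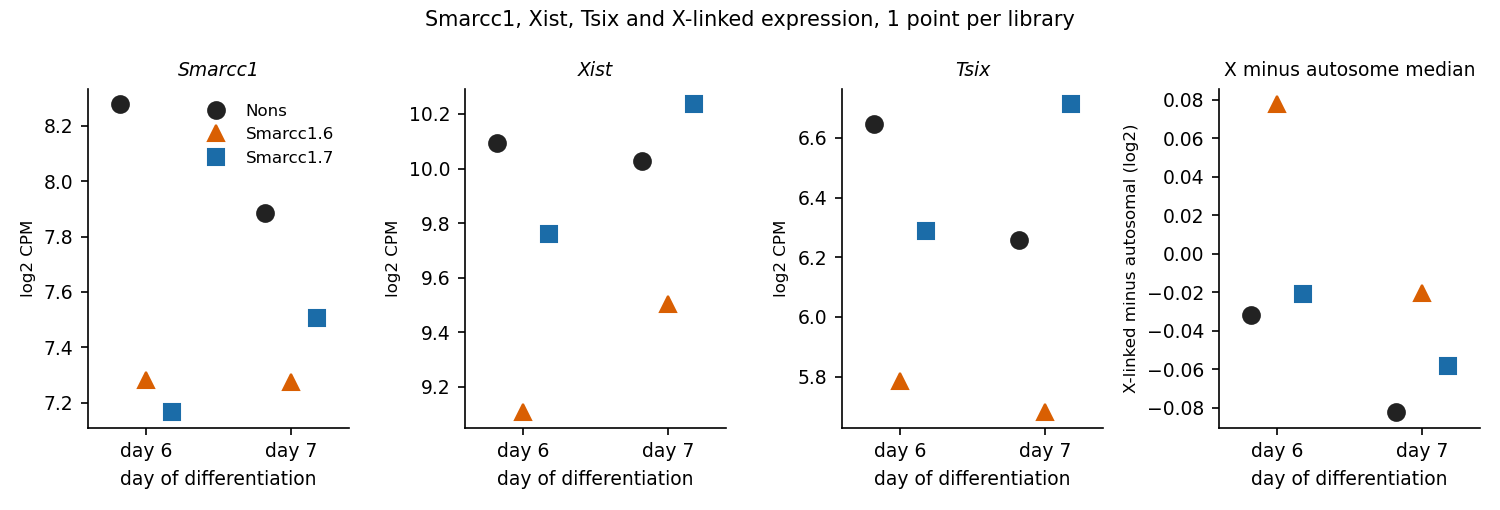
Level in log2 CPM of Smarcc1, Xist and Tsix, and the median of X-linked minus that of autosomal genes (log2), by day of differentiation, with 1 point per library (Nons circles, Smarcc1.6 triangles, Smarcc1.7 squares; the axes do not start at 0). The knockdown points for Smarcc1 sit between 7.17 and 7.51, below both Nons points, whereas for Xist and Tsix the Smarcc1.7 point of day 7 lies above Nons.

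Across the genome 518 genes (3.84% of the 13481 tested) rose in knockdown and 350 (2.60%) fell, and all 868 had the same sign in 4 of 4 same-day differences. The call rests on these same differences, and those of a day share a Nons library, so the like signs are no further support. All genes had a median change of -0.01. The median change was 1.23 for genes that rose and -0.84 for genes that fell. A change of at least 1 on the log2 scale was seen for 322 of the genes that rose and 124 of those that fell, and of at least 3 for 32 and 4. Without regard to the test, 20.2% of genes tested were above Nons in all 4 differences and 21.8% below. The number past the threshold depended on the libraries. It was 483 without Smarcc1.6 of day 6, 367 without Smarcc1.7 of day 6 and 565 without Smarcc1.6 of day 7, and 2019 within day 6 alone (952 higher and 1067 lower) and 468 within day 7 alone (316 and 152), each day having 1 Nons library whose spread is then taken from the knockdown libraries. With a filter at 2 log2 CPM 310 genes rose and 262 fell, and without Nons of day 7 388 and 351.

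Genes of the primitive streak and early mesoderm had the lowest median change of the gene lists. Of 18 genes in the list, 12 were tested, 9 fell and none rose, with a median change of -2.04, and 11 of the 12 were below Nons in all 4 differences. Of all genes tested 2.60% fell and 21.8% were below Nons in all 4. T, the T-box factor that drives mesoderm formation, had 5.03 log2 CPM on day 6 in Nons against 0.87 (Smarcc1.6) and 0.10 (Smarcc1.7), and 7.49 on day 7 against 4.19 and 2.04. It was higher on day 7 than on day 6 in each group but stayed below the lowest Nons value in all 4 knockdown libraries. Its change was -4.46 ± 0.49 (SE, adjusted p = 0.0014), 0.045 times the level in Nons. Mixl1, a homeobox gene of the streak, was at 2.76, -0.36 and -1.18 on day 6 and 5.05, 2.31 and -1.14 on day 7 in the same order, a change of -4.00 ± 0.77 (SE, adjusted p = 0.018). In reads these were 239, 29 and 14, and 980, 290 and 23. Its call was lost without Smarcc1.7 of day 6 (adjusted p = 0.078) or Nons of day 7 (0.061). Evx1, a homeobox gene of the posterior streak, was at 2.93, 0.54 and -0.18 on day 6 and 4.33, 2.11 and 1.22 on day 7, with no overlap between groups and a change of -2.71 ± 0.31 (SE, adjusted p = 0.0016).

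Other streak genes fell by less, and genes beyond the 4 largest changes of a list are given here and below to complete it, chosen after their values were seen. Fgf8, a growth factor that streak cells need to migrate, fell from 5.42 in Nons to 2.56 and 2.59 on day 6 and from 6.85 to 5.00 and 4.44 on day 7 (change -2.49, adjusted p = 0.00059). Eomes fell by 1.71 on the log2 scale, Gsc, an organiser homeobox gene, by 1.59, the Wnt ligand Wnt3 by 1.62 and the Wnt amplifier Rspo3 by 2.37. Lhx1, a LIM homeobox gene, lay at the threshold (-2.91 ± 0.73, SE, adjusted p = 0.0499) and had only 35 reads in Nons on day 6 against 806 on day 7. Leaving out Smarcc1.7 of day 6 or any of the 3 libraries of day 7 took it past 0.05 (adjusted p from 0.083 to 0.38). Nodal (-0.32), Cdx4 (-0.54) and Cdx2 (-0.01) did not pass. The 6 genes under the filter on low values were Mesp1, Msgn1, Tbx6, Wnt3a, Cdx1 and Nkx1-2. Mesp1, which marks the first cardiac mesoderm, had 24 reads on day 6 in Nons and 0 with either hairpin, and 295 on day 7 against 36 and 1. The streak list still held 6 to 9 genes that fell when any single library was left out, 8 within day 6 and 9 within day 7. In bulk RNA, fewer streak cells and less streak RNA per cell cannot be told apart.

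**Figure D2:**
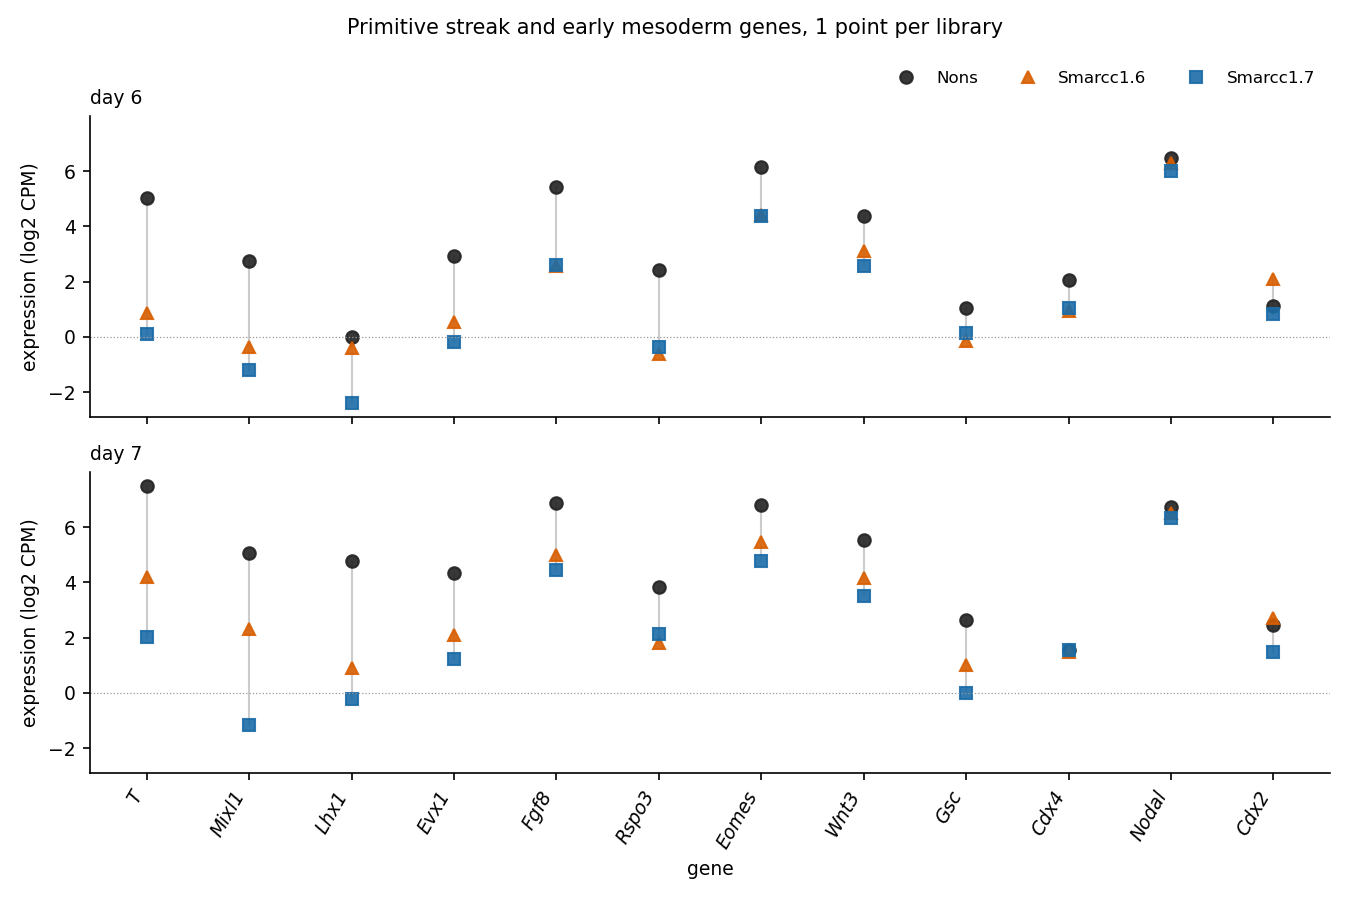
Expression in log2 CPM of the 12 tested primitive streak and early mesoderm genes on day 6 (top) and day 7 (bottom), with 1 point per library and a grey line joining the libraries of a gene. Nons points lie above both hairpins for 11 of the 12 genes on both days, from T (change -4.46) to Nodal (-0.32), whereas Cdx2 overlaps.

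In the Wnt pathway 11 of 33 tested genes fell and 1 rose, against 2.60% and 3.84% of all genes, with a median change of -0.33. Wnt3 and Rspo3 are also members of the streak list, as is Fgf8 of the FGF list. These were the ligands Wnt5b (-2.10), Wnt3, Wnt4 (-0.94), Wnt6 (-0.78) and Wnt7b (-0.74), the amplifier Rspo3, the receptors Fzd10 (-1.04) and Fzd1 (-0.82), and the feedback and target genes Sp5 (-2.82), Sp8 (-1.24) and Axin2 (-1.12), whereas the receptor Fzd7 rose by 0.66. Sp5 was at 3.20 log2 CPM in Nons and -0.26 and -0.35 with Smarcc1.6 and Smarcc1.7 on day 6, and at 5.11, 3.73 and 2.25 on day 7. The Wnt count was between 5 and 9 when single libraries were left out, lowest without Smarcc1.7 of day 6. In the Nodal, activin and TGF-beta list 4 of 19 fell, with a median of -0.25. Fst, the activin antagonist follistatin, went from 5.30 in Nons to 2.12 and 1.72 on day 6 and from 6.15 to 4.12 and 2.66 on day 7 (change -3.07, adjusted p = 0.0017). Tgfbr2 (-1.13), Tgfb1 (-1.06) and Lefty2 (-0.50) also fell.

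Among BMP and ID genes 5 of 19 fell and none rose, against 2.60% and 3.84% of all genes, with a median of -0.16. They were the ligand Bmp2 (-1.42), the transcription factors Tfap2a (-1.23), Msx2 (-0.97) and Gata2 (-0.81), and Id2 (-0.52), an inhibitor of bHLH factors. The call of Bmp2 was lost in 7 alternative fits. In the FGF and ERK feedback list 3 of 24 fell and 2 rose around a median of -0.04. Fgf8 and the feedback inhibitors Il17rd (-0.57) and Spred1 (-0.48) fell, whereas the ligands Fgf4 (2.00) and Fgf15 (1.02) rose. In the retinoic acid list 2 of 14 fell and 1 rose. Cyp26a1, which degrades retinoic acid, was at 3.37, 1.66 and 1.14 in Nons, Smarcc1.6 and Smarcc1.7 on day 6 and at 6.62, 4.01 and 3.05 on day 7 (change -2.53 ± 0.32, SE, adjusted p = 0.0026). Rdh10, which makes the precursor retinal, fell by 1.07 on the log2 scale, and Crabp2, a retinoic acid carrier, rose by 1.40. Pcdh7, a protocadherin (-2.87), and 5730457N03Rik (-3.08) were also among the 12 largest falls. 5730457N03Rik is annotated as antisense and overlaps the start of Evx1, and without strand their reads cannot be told apart.

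Promoters are shown for 2 genes that fell (T and Evx1) and 2 that rose (Hormad1 and Rhox1, described next), because genes of each set moved together. Each runs from 250 bases before to 50 bases after the annotated start (RefSeq, GRCm38.p6), 5′ to 3′ on the strand of the gene, with each CpG in capitals.
T: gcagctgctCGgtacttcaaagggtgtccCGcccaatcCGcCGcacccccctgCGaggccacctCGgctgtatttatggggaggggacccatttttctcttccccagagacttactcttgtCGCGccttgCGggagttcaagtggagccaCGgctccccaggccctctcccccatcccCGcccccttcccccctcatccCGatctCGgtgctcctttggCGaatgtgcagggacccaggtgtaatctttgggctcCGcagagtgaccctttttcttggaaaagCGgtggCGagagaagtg
Evx1: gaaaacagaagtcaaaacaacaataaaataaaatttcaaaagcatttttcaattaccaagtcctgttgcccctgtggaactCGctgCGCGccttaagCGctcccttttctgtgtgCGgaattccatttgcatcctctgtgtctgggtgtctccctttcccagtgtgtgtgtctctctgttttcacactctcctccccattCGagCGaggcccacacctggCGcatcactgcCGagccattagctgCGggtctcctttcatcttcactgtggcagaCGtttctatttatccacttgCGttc
Hormad1: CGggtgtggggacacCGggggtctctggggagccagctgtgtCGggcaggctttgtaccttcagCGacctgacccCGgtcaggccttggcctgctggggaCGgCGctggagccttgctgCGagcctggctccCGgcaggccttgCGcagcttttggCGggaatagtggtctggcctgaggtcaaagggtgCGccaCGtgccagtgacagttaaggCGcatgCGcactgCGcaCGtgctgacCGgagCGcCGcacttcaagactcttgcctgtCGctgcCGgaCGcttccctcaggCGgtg
Rhox1: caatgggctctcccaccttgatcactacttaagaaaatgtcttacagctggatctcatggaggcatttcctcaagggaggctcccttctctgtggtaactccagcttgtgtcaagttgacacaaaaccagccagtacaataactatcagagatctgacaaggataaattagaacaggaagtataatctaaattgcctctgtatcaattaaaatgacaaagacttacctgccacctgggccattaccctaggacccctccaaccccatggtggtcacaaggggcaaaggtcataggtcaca
The window of T (chr17:8434173-8434472, + strand) held 17 CpG, that of Evx1 (chr6:52313248-52313547, + strand) 12, that of Hormad1 (chr3:95559427-95559726, + strand) 24 and that of Rhox1 (chrX:37222209-37222508, - strand) 0. Whole sets could not be compared, since promoters were matched for only 65.4% of genes that rose, 71.4% of those that fell and 68.8% of all genes tested, so that check is void.

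Germline genes rose in the largest share of the gene lists. Of 27 in the list 23 were tested, 17 rose and none fell, with a median change of 1.51, and 20 of the 23 were above Nons in all 4 differences. Of all genes tested 3.84% rose and 20.2% were above Nons in all 4. Hormad1 and Rhox1, with Nons means of -0.37 and -1.82, passed the filter on low values only through their knockdown libraries (means 2.98 and 1.35). With the filter at 2 log2 CPM, 10 of 16 tested germline genes rose, with a median of 1.22. That filter used the same mean over knockdown and Nons libraries, so it cannot show whether the count rests on this selection. Tuba3b, for one, had a Nons mean of 0.008 log2 CPM and passed it only through its knockdown libraries (mean 3.42). Hormad1, a meiotic chromosome axis protein, had 0.70 log2 CPM on day 6 in Nons against 4.05 (Smarcc1.6) and 3.70 (Smarcc1.7), and -1.43 on day 7 against 2.49 and 1.69. Its knockdown values lay above both Nons values on either day, and the change was 3.35 ± 0.27 (SE, adjusted p = 0.00059), or 10.2 times the level in Nons. In reads it had 57, 618 and 412 on day 6 and 11, 329 and 164 on day 7. Tuba3b, a testis alpha-tubulin, was at 1.32, 4.95 and 4.25 on day 6 and -1.31, 2.71 and 1.75 on day 7 (change 3.41, adjusted p = 0.00083), although its near-identical copy Tuba3a (2.95) may share its reads. Rhox1, an X-linked reproductive homeobox gene, was at -0.33, 2.47 and 2.21 on day 6 and -3.31, 0.71 and 0.01 on day 7 (change 3.17 ± 0.36, SE, adjusted p = 0.0016), with 28 reads in Nons on day 6 and 3 on day 7. In Nons these genes were lower on day 7 than on day 6, and so they were with both hairpins, although these days also differed in read assignment.

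Among the other members Taf7l (2.58), a germ cell transcription factor subunit, Slc25a31 (2.06), a germ cell ADP/ATP carrier, Sycp3 (1.77), of the synaptonemal complex, and Dazl (1.64), a germ cell RNA-binding protein, rose. So did Rhox13 (1.71), Fkbp6 (1.66), Tex19.1 (1.58), Mael (1.51), Rhox5 (1.41), Rpl10l (1.30), Mov10l1 (1.17), Xlr3a (1.14) and Ddx4 (0.82), of which Tex19.1, Mael and Mov10l1 act against transposable elements. The 6 that did not pass were Sycp1 (0.99), Stk31 (0.89), Xlr3b (0.57), Tdrd1 (0.12), Rhox9 (0.05) and Rhox6 (-0.08). The 4 under the filter on low values were Tex101, Dpep3, Asz1 and Magea4. Xlr3a and Xlr3b are near-identical copies, and the split of reads between them is uncertain. The germline count was 13 to 18 when single libraries were left out, 19 within day 6 and 13 within day 7.

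**Figure D3:**
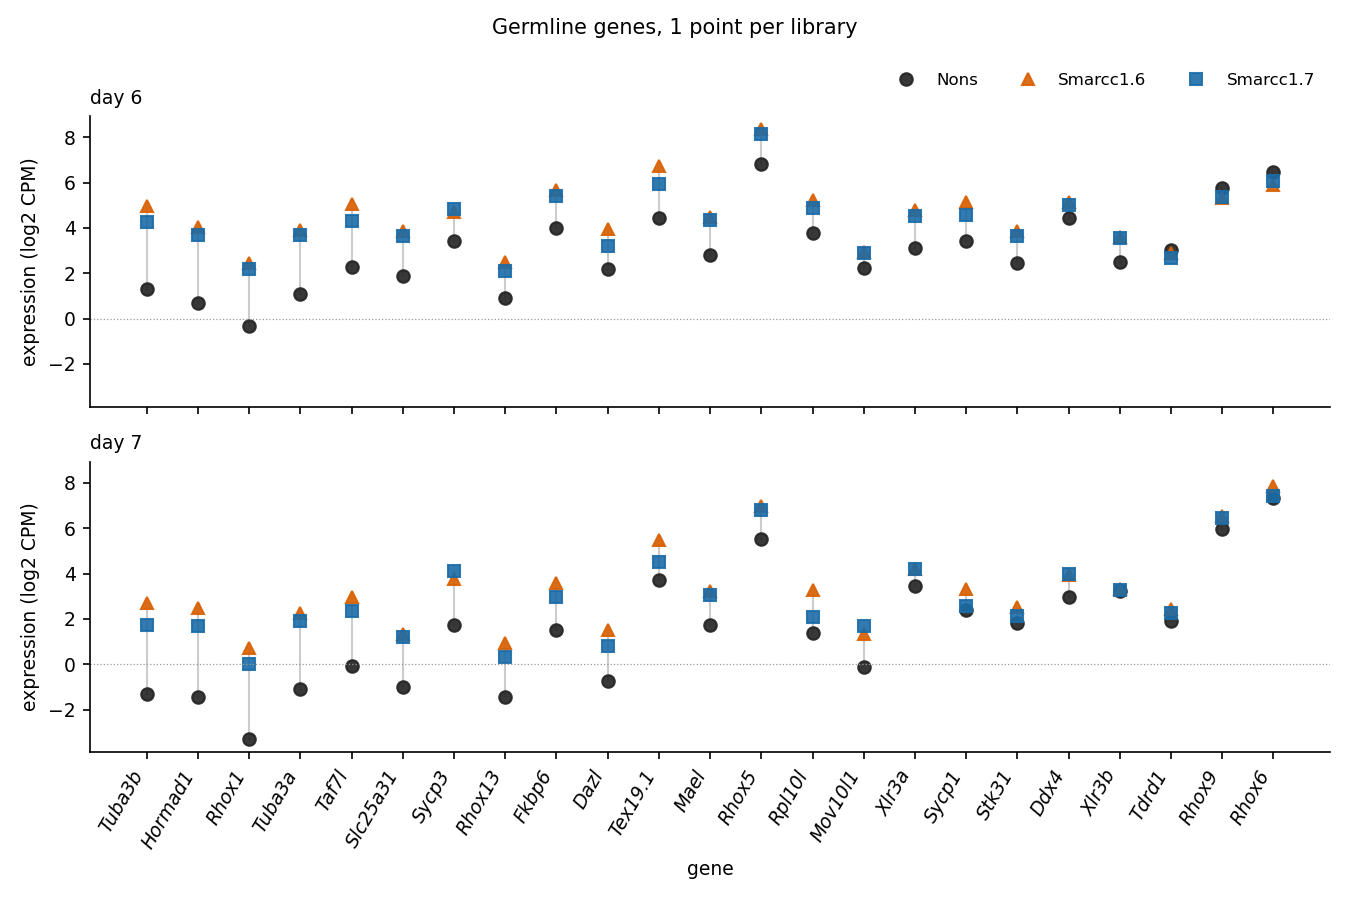
Expression in log2 CPM of the 23 tested germline genes on day 6 (top) and day 7 (bottom), with 1 point per library and a grey line joining the libraries of a gene. Both hairpins lie above Nons for 20 of the 23 genes on both days, with the widest gaps for Tuba3b (change 3.41), Hormad1 (3.35) and Rhox1 (3.17), whereas for Tdrd1, Rhox9 and Rhox6 both lie below Nons on day 6 and above it on day 7.

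Other genes were among the 12 largest rises. Tdrd12, a Tudor protein of the piRNA pathway that was not in the germline list, was at 2.49, 5.21 and 4.79 on day 6 and -0.89, 3.48 and 3.02 on day 7 in Nons, Smarcc1.6 and Smarcc1.7 (change 3.33, adjusted p = 0.0011). The largest rise was the uncharacterised gene 1700029P11Rik (4.84 ± 0.43, SE, adjusted p = 0.00083), with 20, 546 and 268 reads on day 6 and 2, 258 and 92 on day 7. Gm13078 (4.08), Gm13119 (3.65) and Pramef6 (3.29) lie on chromosome 4, where genes of the PRAME family have near-identical copies, and Gm2016 (3.36) and Gm6189 (4.11) also have near-identical copies, so their reads are uncertain. Sp110 (3.44), a nuclear body protein, and 2410004A20Rik (3.33) rose as well. Of these genes 1700029P11Rik, Gm6189, Gm13078, Sp110, Gm2016 and Pramef6 had Nons means from -2.35 to -0.60 log2 CPM. They passed the filter on low values only through their knockdown libraries.

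Of 12 tested naive pluripotency genes, 5 rose and 1 fell, against 3.84% and 2.60% of all genes, with a median of 0.88. Fgf4, the autocrine growth factor of mESCs, was at 5.53, 7.23 and 6.98 in Nons, Smarcc1.6 and Smarcc1.7 on day 6 and 2.67, 5.20 and 5.01 on day 7 (change 2.00 ± 0.18, SE, adjusted p = 0.00083). Prdm14 (1.73), Dppa3 (1.34), Zfp42 (0.88) and Esrrb (0.87), all expressed in naive cells, also rose, and Klf5 fell by 0.84. Prdm14, with a Nons mean of -0.69 log2 CPM, passed the filter on low values only through its knockdown libraries. Nanog (0.10, adjusted p = 0.64) did not pass. The naive count fell to 2 without Nons, Smarcc1.6 or Smarcc1.7 of day 6 or without Smarcc1.6 of day 7. Of 11 core pluripotency genes Sox2 (1.05) and Dppa4 (0.68) rose, the median change was 0.03, and Pou5f1 changed by 0.03 without passing.

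Of 15 genes of the formative and primed state 6 rose and 1 fell, against 3.84% and 2.60% of all genes, with a median of 0.50. Dnmt3l, a cofactor of the de novo DNA methyltransferases, was at 7.19, 8.68 and 8.40 on day 6 and 5.21, 7.25 and 7.20 on day 7 (change 1.69 ± 0.15, SE, adjusted p = 0.00083). The de novo methyltransferase Dnmt3a rose by 1.09, from 7.79 in Nons to 9.35 and 9.06 on day 6 and from 6.40 to 7.24 and 7.07 on day 7, and Dnmt3b changed by 0.53 without passing (adjusted p = 0.065). Fgf15, Sall2 (1.02), Otx2 (0.92) and Pou3f1 (0.50) rose, and Cdh2, the mesenchymal N-cadherin, fell by 1.56. All 6 genes that rose were lower in Nons on day 7 than on day 6, days that also differed in read assignment. Of 12 enzymes of DNA methylation only Dnmt3a and Dnmt3l passed.

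Neural genes rose in 1 of 7 tested cases, against 3.84% of all genes. Sox1, an early marker of neuroectoderm, was at -1.14, 3.32 and 2.78 log2 CPM on day 6 and -2.89, 1.20 and 0.62 on day 7 in Nons, Smarcc1.6 and Smarcc1.7, with 16, 373 and 219 reads and 4, 135 and 78. The groups did not overlap, and the change was 4.00 ± 0.31 (SE, adjusted p = 0.00059). Sox1 passed the filter on low values only through its knockdown libraries (mean 1.98 log2 CPM, against -2.01 in Nons). Pax6 changed by 0.55 without passing (adjusted p = 0.15), and the median of the list was 0.24. Cdk5r2, a neuronal activator of Cdk5, rose by 3.27. Its Nons mean was -0.45 log2 CPM, so it too passed the filter only through its knockdown libraries.

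Of 21 collagen and matrix genes 5 fell and 1 rose, against 2.60% and 3.84% of all genes, with a median of -0.51. The median difference was -0.70 on day 6, when 16 were below Nons with both hairpins and 2 above. It was 0.011 on day 7, with 7 below and 7 above. Of all 13481 genes 6007 were below and 4754 above on day 6, and 4423 below and 4886 above on day 7. Fn1 (fibronectin) was at 7.21, 6.11 and 6.07 on day 6 and 9.66, 7.76 and 7.79 on day 7 (change -1.50 ± 0.15, SE, adjusted p = 0.0011). Col5a2 (-2.01), Col4a1 (-0.75), Col4a2 (-0.68) and Nid1 (-0.62) fell as well. Col1a2, a chain of collagen I, went the other way, at 0.88, 4.35 and 3.60 on day 6 and 2.36, 5.71 and 6.05 on day 7 (change 3.31 ± 0.22, SE, adjusted p = 0.0005). Of 14 mesenchymal genes Cdh11 (-2.06) and Twist1 (-0.98) fell and Tcf15 (1.83), a bHLH factor of epiblast and somites, rose.

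Over all genes tested 3.84% rose and 2.60% fell. Beside these shares, a count of 1 or 2 genes in a list below is a description and no result about the list. In other tissue lists Cubn (2.08) rose among 9 endoderm genes and Actc1 (-1.35) fell among 7 cardiac genes. Of 17 epithelial genes Cldn3 (1.05) rose and Krt7 (-0.69) fell, and of 9 trophoblast genes Tead4 (-0.78) and Peg10 (-0.60) fell. Of 10 endothelial and haemangioblast genes Pecam1 (1.79) and Lmo2 (1.25) rose and Flt1 (-0.99) and Gata2 fell. Of 39 Hox genes only 3 passed the filter on low values and none of these the test. Among 23 imprinted genes 5 fell (Peg3, -0.91, Nnat, -0.82, Slc38a4, -0.73, Peg10 and Zdbf2, -0.54), and Grb10, an inhibitor of insulin signalling, rose by 1.76, from 6.22 to 7.01 and 7.52 on day 6 and from 4.22 to 6.52 and 6.87 on day 7. In the insulin and IGF list of 13, the binding proteins Igfbp5 (2.03) and Igfbp2 (0.57) rose and Igfbp3 (-1.16) and the adaptor Irs1 (-1.38) fell. Of 11 LIF and STAT3 genes Gbx2 (1.96) and Socs3 (0.60) rose, of 15 Notch genes Hes6 (0.56), of 20 glycolysis genes Pfkm (0.64) and Pgk1 (0.60), and of 20 p53 targets Trp73 (0.90), while Perp (-0.90) and Plk2 (-0.78) fell. Gbx2, with a Nons mean of -0.35 log2 CPM, passed the filter on low values only through its knockdown libraries. Calls of Krt7, Actc1, Igfbp2, Socs3, Hes6 and Pfkm were lost in 7 or 8 alternative fits each. Pgk1 was at 6.00 to 6.91 in the day 6 libraries and 11.23 to 11.74 in those of day 7, and why it differed by day was not tested.

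None of 18 G1 cyclins and CDK inhibitors (median -0.01), 17 actin and smooth muscle genes (median -0.35) or 23 interferon response genes (median -0.16) passed the threshold in the limma fit of both days. The same held for the 3 tested macrophage and blood genes and the 5 tested feeder genes. Over all 13481 genes, 2960 had an unadjusted p under 0.05.

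**Figure D4:**
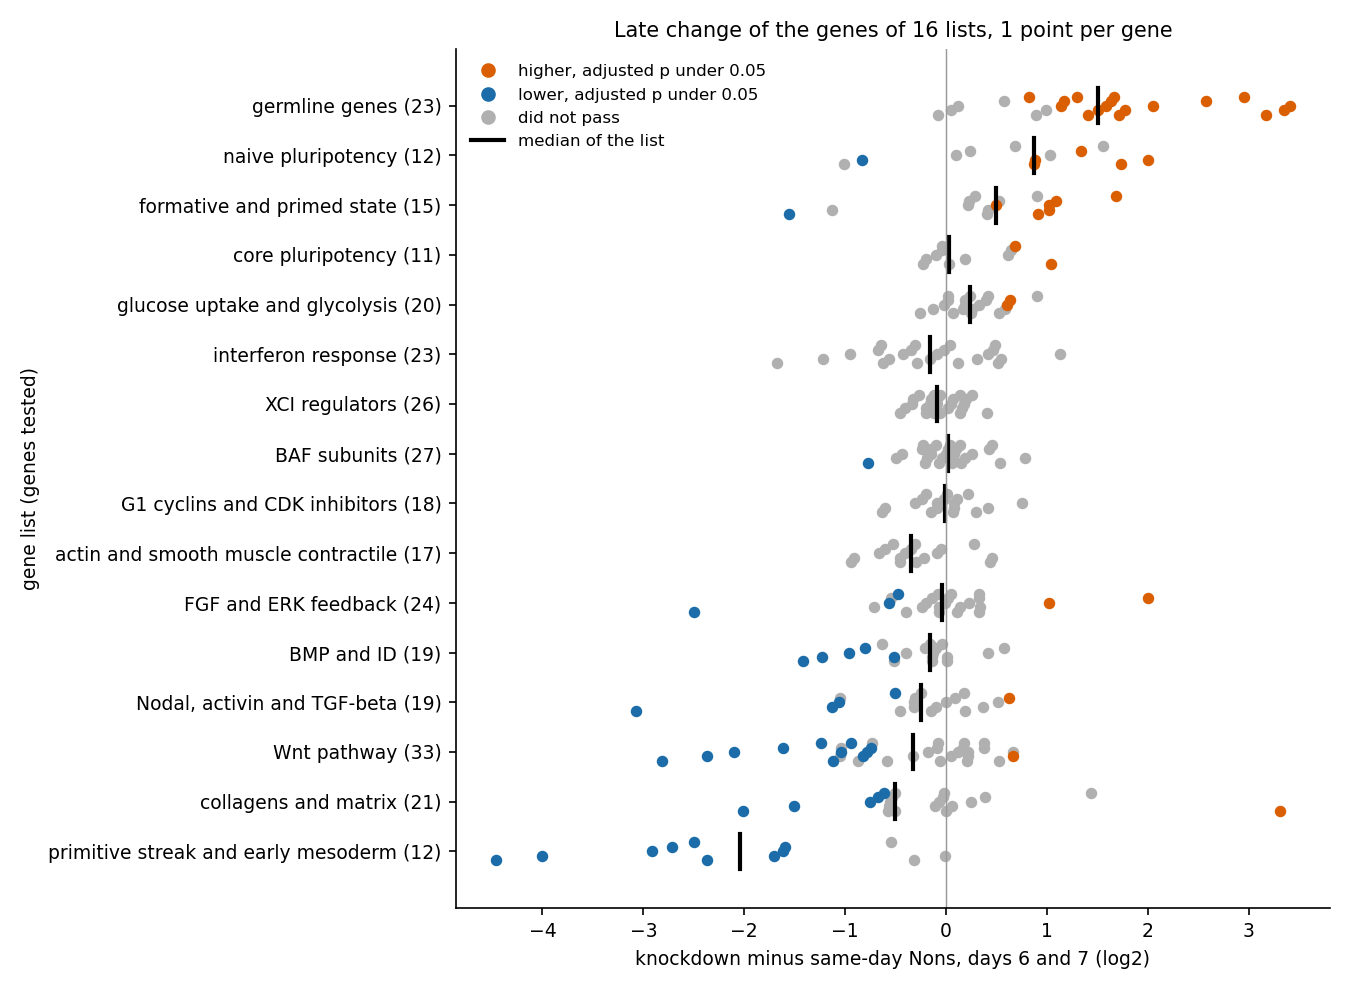
Change of each tested gene in log2 units (knockdown minus same-day Nons over days 6 and 7) for selected gene lists, with the number of genes tested in brackets and a black bar at the median of the list. Germline genes lie furthest to the right (median 1.51) and primitive streak genes furthest to the left (median -2.04), whereas XCI regulators and BAF subunits other than Smarcc1 hold no gene past the threshold.

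Genes of the X chromosome passed the threshold more often than autosomal genes in both directions. Of 499 X-linked genes tested 40 (8.02%) rose and 29 (5.81%) fell, against 478 (3.68%) and 321 (2.47%) of 12974 autosomal genes, shares given as a description with no test. The 40 include genes already counted in the germline list, among them Taf7l, Rhox1 and Rhox5. The median X-linked change was 0.067, against -0.015 for autosomal genes, and 30.3% of X-linked genes were above Nons in all 4 differences, against 19.8% of autosomal genes. The largest X-linked rises with at least 2 log2 CPM in the higher group were Mcf2 (2.74), a guanine exchange factor, C330013F16Rik (2.64), Taf7l (2.58) and Otud6a (2.42), a deubiquitinase. Mcf2, C330013F16Rik and Otud6a had Nons means from -0.38 to -0.08 log2 CPM. Like Rhox1, they passed the filter on low values only through their knockdown libraries. The share of X-linked genes that rose takes in such genes. Taf7l was at 2.28, 5.06 and 4.32 in Nons, Smarcc1.6 and Smarcc1.7 on day 6 and -0.08, 2.96 and 2.37 on day 7. The largest X-linked falls were Apln (-2.37), the ligand apelin, Cxx1c (-1.74), Amot (-1.65), a regulator of the Hippo pathway, and Col4a5 (-1.58), a collagen IV chain. Amot was at 6.59, 4.85 and 4.84 on day 6 and 7.94, 6.40 and 6.37 on day 7, with a change of -1.65 ± 0.09 (SE, adjusted p = 0.00029). The call of Cxx1c was lost without Nons of day 6 or day 7 or Smarcc1.7 of day 6 (adjusted p from 0.052 to 0.14).

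The hairpins taken apart each had genes past the threshold. Smarcc1.6 moved 629 genes past the threshold (4.67%; 397 higher and 232 lower) and Smarcc1.7 526 (3.90%; 336 higher and 190 lower), both against the same Nons libraries. The T difference was -3.73 with Smarcc1.6 and -5.19 with Smarcc1.7, that of Hormad1 3.64 and 3.06, that of Sox1 4.28 and 3.72, and that of Dnmt3l 1.77 and 1.6. The direct test between hairpins called 0 genes (0%) by limma, with 652 genes at an unadjusted p under 0.05, so hairpin differences were not detectable at 2 libraries each. Ranked by limma's moderated statistic, the leading genes were higher with Smarcc1.6 for Calcoco2 (1.06), Malat1 (0.88) and the X-linked Trap1a (0.78) and higher with Smarcc1.7 for Adm (-1.19), Aldoc (-0.93) and Xist (-0.69), none past the threshold. Without Nons of day 6 or of day 7 the test between hairpins gave 122 and 126 genes, and without Smarcc1.7 of day 7 the count for Smarcc1.7 was 0, without that of day 6 19. The count for Smarcc1.6 ran from 162 without its own day 6 library to 1366 without Nons of day 7.

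The response differed between day 7 and day 6 for 22 genes (0.163% of those tested), 6 higher and 16 lower on day 7, which are named here after their values were seen. Isg15, Oasl2, Oas1g, Ifi35, Mx2 and Trim30a, all known to be induced by interferon, were among the 16. In the interferon response list 3 of 23 genes (Isg15, Oasl2 and Ifi35) passed, all lower on day 7. Isg15, a ubiquitin-like modifier, had 3.26 log2 CPM on day 6 in Nons against 2.92 (Smarcc1.6) and 3.32 (Smarcc1.7), and 6.35 on day 7 against 4.24 and 3.87. Oasl2 was at 3.52, 4.63 and 4.69 on day 6 and 4.90, 3.95 and 4.04 on day 7, and Mx2 at 0.64, 1.93 and 2.23 and at 5.13, 3.01 and 2.22. Nons of day 7 was the highest library for Isg15, Oasl2 and Mx2, and Nons of day 6 the lowest for Oasl2 and Mx2. The 23 interferon response genes had a median difference of 0.43 on day 6 and -0.34 on day 7. Acta2, smooth muscle actin, differed the other way, at 5.31, 3.09 and 3.55 on day 6 and 6.97, 7.26 and 7.01 on day 7 (day 7 minus day 6 response 2.16, adjusted p = 0.040), as did Myl9 (1.62). The 17 actin and smooth muscle genes had a median difference of -0.63 on day 6, when 16 were below Nons with both hairpins, and of 0.06 on day 7. Of all 13481 genes 6007 were below Nons with both hairpins on day 6, which share 1 Nons library. The 16 genes lower on day 7 also held the ribosomal protein gene Rpl17 (-1.66) and the processed pseudogene Apoo-ps (-2.25). Rpl17 was at 1.46, 3.10 and 3.28 on day 6 and 7.34, 7.45 and 7.36 on day 7. Whether the read assignment of day 6 bears on such calls was not tested. The contrast rests on 1 Nons library per day, and it gave 0 genes without Smarcc1.6 of day 6, 1 without Smarcc1.7 of day 6, 590 without Smarcc1.6 of day 7 and 358 without Smarcc1.7 of day 7.

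The late response was set against the early response of the same hairpins on days 4 and 5, which has its own Nons libraries. Smarcc1 itself changed by -1.34 early (limma, adjusted p = 0.018) and by -0.77 late. The difference of 0.57 between periods did not pass (adjusted p = 0.24), so the depth of knockdown may not be equal in the 2 periods. On days 4 and 5 knockdown moved 943 genes (7.00%) past the threshold, and 164 genes passed in both periods, 18.9% of the late and 17.4% of the early genes, 152 of them in the same direction. The test of the difference between periods called 229 genes (1.7%), 120 with a higher and 109 with a lower response late. Of the 868 late genes 144 differed from the early response, and in all 144 the late change was the further one in its direction (85 higher and 59 lower). Choosing these genes by their late change largely fixed this direction, so it is no separate result. Of the genes that rose late 84.9% had an early change above 0, and of those that fell late 69.1% had one below 0, against 45.8% and 54.2% of all genes.

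Part of the streak list fell further on the late days. The early median of the list was -0.03, and 5 of the 12 genes differed between periods, all lower late. Fgf8 (-1.26) and Wnt3 (-1.17) had already fallen early, and their differences between periods did not pass. T changed by -0.54 early and -4.46 late, a difference of -3.93 (adjusted p = 0.020), Evx1 by 0.25 and -2.71 (difference -2.96, adjusted p = 0.013), and Eomes by -0.14 and -1.71 (difference -1.57, adjusted p = 0.018). Nodal (early 0.57, late -0.32) and Cdx4 (1.16, -0.54) were the others, and both had risen past the threshold early (adjusted p = 0.045 and 0.035). Cyp26a1 turned, from a rise of 1.40 early (adjusted p = 0.019) to a fall late (difference -3.94 ± 0.43, SE, adjusted p = 0.0037). Emp1, an epithelial membrane protein (2.47 early, -0.85 late), Nrp2, a semaphorin co-receptor (0.83, -1.16), and Nid1, a basement membrane protein (1.17, -0.62), turned in the same way. The late calls of Emp1 and Nid1 were each lost in 5 alternative fits. Anxa2 rose early (1.19) and was at -0.34 late without passing, and the difference passed (-1.54).

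The germline list had an early median of 0.62 with 7 genes past the threshold, and 8 of its 23 genes had a larger response late, whereas 15 did not pass the test between periods. Hormad1 changed by 0.87 early (adjusted p = 0.068) and by 2.48 more late (adjusted p = 0.013), and Rhox5 by 0.01 early and 1.41 late. The formative list had an early median of -0.20, and 4 of its 15 genes were higher late, among them Dnmt3l (0.18 early, 1.69 late) and Sall2 (-0.69, 1.02). Sox1 changed by 0.14 early and 4.00 late (difference 3.85, adjusted p = 0.0037). The metallothioneins Mt1 and Mt2, which bind zinc, were 1.25 and 1.20 above Nons late and at -0.17 and -0.08 early. Mt1 was at 5.72, 6.90 and 6.91 in Nons, Smarcc1.6 and Smarcc1.7 on day 6 and 4.39, 5.72 and 5.70 on day 7, without overlap within a day. The naive pluripotency list had an early median of 1.21, and 10 of its 12 genes rose early. Between periods Fgf4 was higher late (difference 1.30, adjusted p = 0.032) and Klf5 lower (-0.92, adjusted p = 0.046), and the other members did not pass, Nanog with 1.39 early and 0.10 late (difference -1.29, adjusted p = 0.098) among them. The count of 229 fell to 25 without Nons of day 4 and to 52 without Nons of day 7.

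The genes were also followed in control cells before the late period. Between days 4 and 5 in Nons, 63.9% of the 518 genes that rose late went down, against 31.7% of the 350 that fell late and 40.5% of all genes. These libraries were not part of the late comparison, and with 1 Nons library a day the shares are a description without a test.

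**Figure D5:**
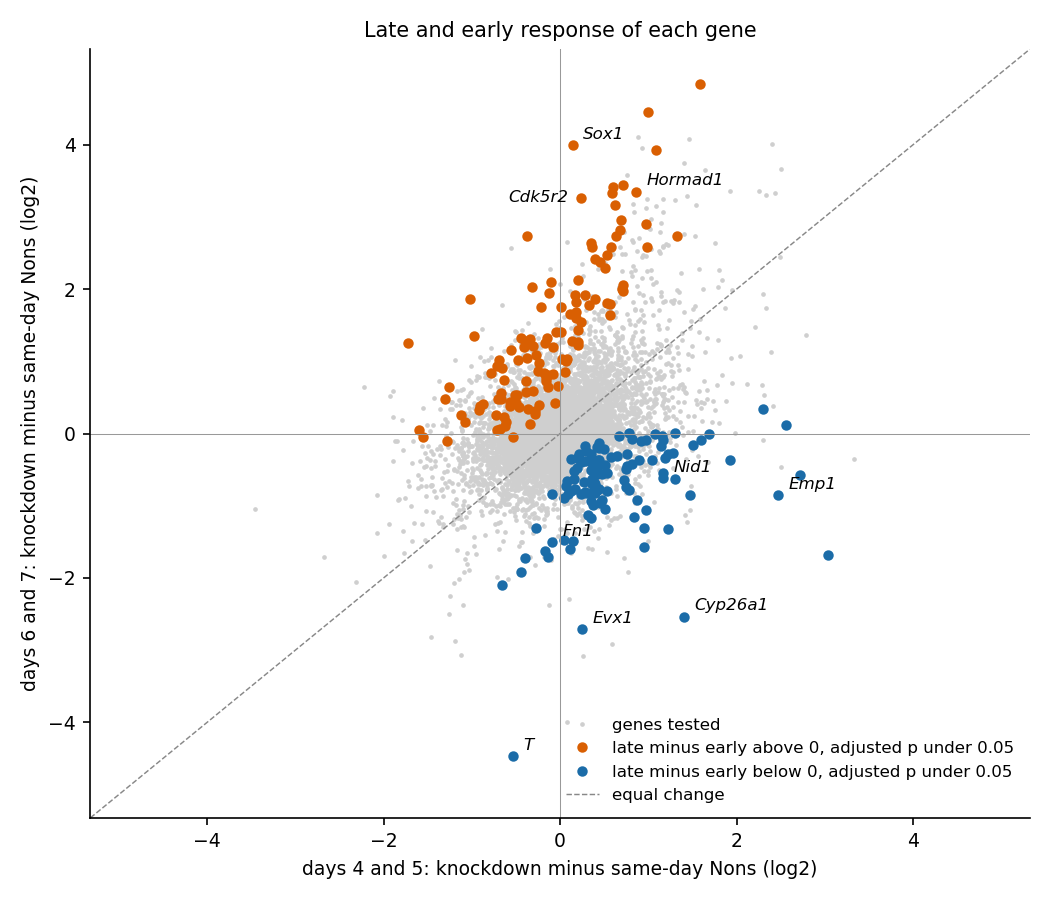
Change of each of the 13481 genes on days 6 and 7 (vertical) against that on days 4 and 5 (horizontal), both knockdown minus same-day Nons in log2 units, with a dashed line at equal change. Coloured points are the 120 genes with a higher and the 109 with a lower response late. Sox1 (0.14 early, 4.00 late) and T (-0.54 early, -4.46 late) lie far from the line.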

How the data were processed

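The deposited table holds log2 CPM values per gene and library for 13 libraries, made by the authors from paired-end RNA-seq reads that were trimmed, mapped to mm10 with FVB and CAST SNP positions masked and counted in Seqmonk. The submitters' processing notes name TopHat2 2.0.12. The strand setting and annotation release are not given in the sources used here. Low values were whole multiples of 1 read in 100% of cases (tolerance 0.01 reads, values up to 200 reads), with 0 reads written as 0.9 reads. Recovered depth was 29667077 to 58665015 mapped reads for the 6 libraries.

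Genes whose log2 CPM averaged 0 or more were fitted in limma 3.58.1 (R 4.3.3) with an intensity trend, day and knockdown, which left 3 residual degrees of freedom. Further fits separated hairpins, days (interaction) and periods (12 libraries). Single values were compared by an exact two-sided permutation test within day. Scripts ran in Python 3.11.15 and were tested on simulated data. The members and gene lists were chosen with earlier results of these data known. Named genes were the 12 largest rises and falls, the 4 largest X-linked changes each way, up to 4 members per list, and the 5 leading genes each way by moderated t for late minus early (3 for hairpins, where none passed), with at least 2 log2 CPM in the higher group. Other genes named were chosen after their values were seen. 1 member of the Nodal, activin and TGF-beta list is not reported here. Alternatives changed the filter, trend, centring, pseudocount, weights, day block and libraries. How many genes fell in each list under each fit was added after seeing the data. Day was the block, since libraries of a day share the time point.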

Additional observations from a re-analysis of the deposited data

Results flagged for a closer look

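In 3 of 129 values tested (2.33%, where chance gives about 1 in 20) 1 of the 4 same-day differences stood apart, each time that of Smarcc1.7 on day 7. It was -0.34 for Il17rd against -0.66 to -0.64 in the others, 1.03 for Pfkm against 0.50 to 0.51, and 1.13 for Cd68 against 0.24 to 0.38.

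The response differed between periods for 229 genes and between days 7 and 6 for 22 genes by limma's test of the difference. Among the genes named, the late minus early difference was positive for 1700029P11Rik (3.26), Sp110 (2.73), Tuba3b (2.81), Hormad1 (2.48), Tdrd12 (2.74), Mcf2 (2.10), C330013F16Rik (2.28), Taf7l (1.6), Otud6a (2.02), Rhox5 (1.40), Mt2 (1.27), Tcf15 (1.65), Mt1 (1.42), Cdk5r2 (3.03), Fgf4 (1.30), Dnmt3l (1.51), Fgf15 (1.50), Rhox1 (2.55), Tuba3a (2.26), Sox1 (3.85), Pecam1 (1.23), Hes6 (1.22), Crabp2 (1.45), Igfbp5 (2.35) and Grb10 (1.97). It was negative for T (-3.93), Evx1 (-2.96), Cyp26a1 (-3.94), Emp1 (-3.32), Nrp2 (-1.99), Nid1 (-1.78), Anxa2 (-1.54), Fn1 (-1.42), Tead4 (-1.57), Wnt5b (-1.44), Tgfb1 (-2.03) and Slc38a4 (-0.80).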

How the results depend on the processing

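The 868 late genes became 572 with a filter at 2 log2 CPM and 1642 with none, 2019 within day 6, 468 within day 7, 337 with Smarcc1.6 and Nons only and 417 with Smarcc1.7 and Nons only, and 367 to 987 when single libraries were left out. Without the day block, which pairs each knockdown library with Nons of its day, 0 genes passed by limma for knockdown (891 at an unadjusted p under 0.05) or for either hairpin. The 629 genes of Smarcc1.6 became 1813 with no filter, 325 with no trend and 162 to 1366 with single libraries left out, and the 526 of Smarcc1.7 became 1780, 235 and 0 to 1252. The difference between hairpins gave 84 genes with no filter and 0 to 126 with libraries left out. The 22 genes that differed by day became 131 with no filter, 0 with no trend, 0 with centring, 0 with voom weights (1135, 981 and 878 at an unadjusted p under 0.05) and 0 to 590 with libraries left out. The 229 genes that differed by period became 362, 16 and 25 to 491 with no filter, no trend and libraries left out.

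With libraries left out, Smarcc1 ran from -1.05 to -0.50, Xist from -0.66 to -0.16, Tsix from -0.61 to -0.063 and the X minus autosome median from 0.032 to 0.065 (0.247 with no filter). The direction turned for Tsix with Smarcc1.7 and Nons only (0.047), for Smarca2 without Smarcc1.6 of day 6 (range with libraries left out -0.036 to 0.203), and for Smarca4 within day 6 or without Nons of day 7 (-0.077 to 0.187). Of 97 named genes past the threshold, 54 stayed past it with each library left out and 0 turned direction. Among the alternative fits, Krt7 lost its call in 8, Actc1, Bmp2, Hes6, Igfbp2, Pfkm and Socs3 in 7 each, and Trp73 and Lhx1 in 6 each. These numbers leave out the fits within 1 day, with 1 hairpin or without the day block. Apart from the effects of fewer or more genes and libraries, the cause was not tested. With 1 library per hairpin and day, libraries and cultures cannot be told apart.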
